A study of Homo sapiens with 6 samples.

Results

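AP-1 is a dimer of basic leucine zipper (bZIP) proteins, and 10 genes for its core subunits and for proteins induced along with them were followed in LNCaP cells: the JUN family (JUN, JUNB, JUND), the FOS family (FOS, FOSB, FOSL1, FOSL2), and the immediate early genes EGR1, IER2 and IER3. They were taken by symbol from a table of 35430 genes, and each symbol matched a single gene. RNA came from 3 libraries of cells exposed to 0.5 µM palbociclib over 1 week and from 3 libraries of control cells, for which no vehicle or culture time is recorded. LNCaP is an established, androgen-responsive human prostate cancer line, both groups are the same line, and palbociclib is an inhibitor of CDK4 and CDK6. Nothing states that the libraries of a group came from separate cultures, so p-values measure no more than how these libraries scatter, and that scatter may be technical. In bulk RNA, fewer cells that express a gene and less RNA of it per cell cannot be told apart.

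JUN proteins pair with each other or with FOS proteins, whereas FOS proteins need a JUN partner, and the dimers bind short palindromes in promoters and enhancers. Growth factors and stress switch on FOS, EGR1 and IER2 within minutes, through serum response factor (SRF) and its ETS partners at CArG boxes, and the transcripts decay quickly. JUNB and JUND are often described as restraining growth where JUN promotes it, and FOSL1 and FOSL2 respond later than FOS. The libraries show levels at a single time, and whether such a pulse came shortly before it cannot be told.

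JUND fell 3.08-fold with palbociclib, FOS 2.46-fold and JUN 1.37-fold, whereas JUNB rose 1.51-fold. The other 6 genes did not pass the test. A call was made for 4 of the 10 genes, 1 higher and 3 lower. Over all 21218 genes tested, 38.6% were called, 20.1% higher and 18.5% lower, so the share called among these genes was near that of the transcriptome. The split of all calls was 4270 higher and 3921 lower with TMM scaling, and 3094 higher and 5479 lower with library size alone, which moved the median log2 fold change of all genes to -0.14 from -0.03; the direction of JUN, JUNB, JUND and FOS was the same under both. Groups did not overlap for 5 of the 10 genes, against 51.1% of all genes tested. The test was edgeR's quasi-likelihood F-test on the deposited estimated counts, its p-values adjusted by Benjamini-Hochberg across the 21218 genes and called under 0.05. Levels are CPM (counts scaled to library size) after TMM scaling, with the standard deviation (SD) over 3 libraries, and fold changes are palbociclib over control with their standard error (SE).

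**Figure D1:**
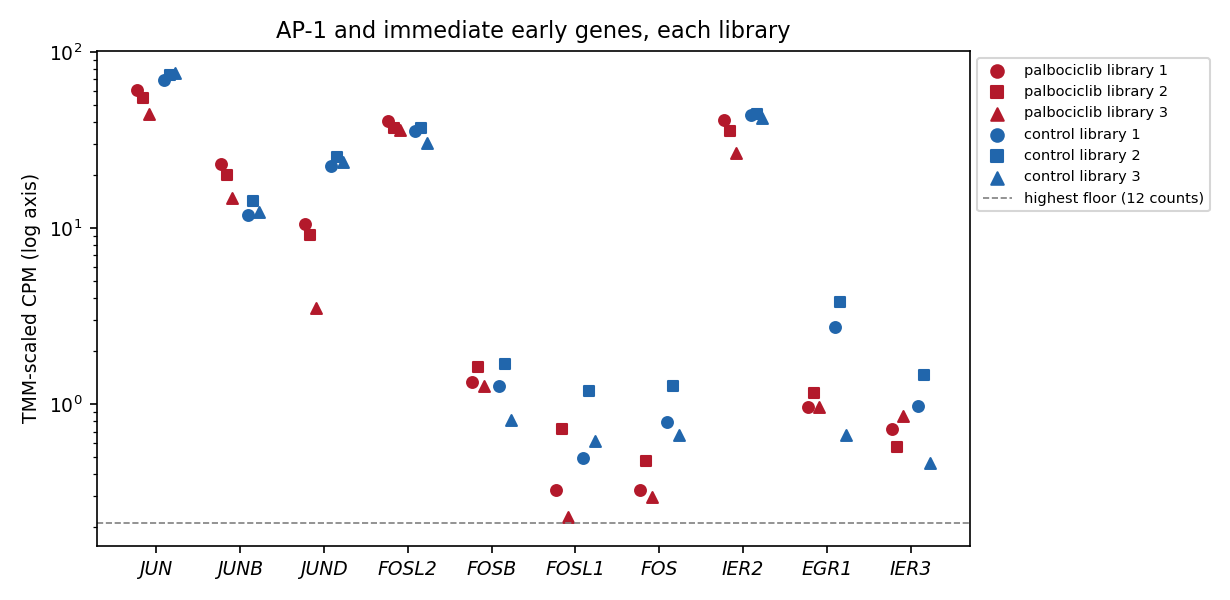
TMM-scaled CPM of each gene on a log axis in each library, palbociclib (red) to the left of control (blue), with a symbol shape per replicate number. JUND lies between 3.52 and 10.6 CPM with palbociclib and between 22.4 and 25.5 CPM in controls, whereas EGR1 in control library 3 (0.67 CPM) lies below all palbociclib libraries; the dashed line is the highest floor, 12 counts or 0.211 CPM.

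Libraries held 59183323 to 76211410 estimated counts with palbociclib and 57082715 to 78117945 in controls, and about 4 counts stand for a single fragment. The floor for a gene is 12 counts (3 fragments), or 0.148 to 0.211 CPM, and covers counting error only. Of 13 LNCaP identity genes 10 were called higher, 2 lower (FOLH1 and EPCAM) and 1 did not pass (KRT18). Over all genes tested 20.1% were called higher and 18.5% lower. The 13 summed to 10212 to 10388 CPM with palbociclib and 6878 to 6960 CPM in controls, with KLK3 and KLK2 the largest parts. A list of 20 markers of other cell types, 13 of them tested (3 higher, 2 lower), summed to 50.5 to 59.1 CPM with palbociclib and 49.4 to 54.8 CPM in controls. HBB was at 0 in 5 of 6 libraries. COL1A1 alone supplied 27.2 to 30.4 CPM of the sum with palbociclib and 25.5 to 26.4 CPM in controls. The markers called higher were CD68 (6.12 CPM with palbociclib and 2.40 CPM in controls), KRT14 (3.10 and 1.37) and ACTA2 (4.15 and 2.53). Those called lower were VWF (5.71 and 11.4) and PTPRC (0.47 and 1.19), so a similar sum hides moves in both directions. Such calls were near the share over all genes tested, 20.1% higher and 18.5% lower. Of 13 mitochondrially encoded transcripts 12 rose, against the same 20.1% over all genes tested. The sum of the 13 was 59138 to 62468 CPM with palbociclib and 43371 to 46669 CPM in controls. The part of these differences in the results below was not tested. In 9 of the 10 genes palbociclib library 3 was the lowest of its group, and in 6 of them control library 3 was the lowest of the controls. The same shares over all genes tested were not computed. In bins of genes with up to 61.3% G and C, palbociclib library 3 was not low. Its median difference from the mean of the other palbociclib libraries was 0.005 to 0.028 log2 units there, and -0.04 to -0.41 in the bins above.

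The JUN family carried most of the signal per length. On the FPKM scale (deposited values, scaled to transcript length and library depth), JUN averaged 13.6 ± 2.05 with palbociclib and 20.2 ± 0.894 in controls (SD, n = 3 each). JUNB averaged 9.80 ± 2.11 FPKM with palbociclib and 6.99 ± 0.758 FPKM in controls. JUND averaged 3.71 ± 1.78 FPKM with palbociclib and 12.4 ± 0.836 FPKM in controls. In controls the order of levels was JUN, IER2 (14.1), JUND, JUNB and FOSL2 (4.80), with the other 5 genes averaging below 1 FPKM, and no neighbours among the first 5 overlapped over the control libraries. With palbociclib it was JUN, IER2 (10.4), JUNB, FOSL2 (4.91) and JUND, where JUN overlapped IER2, IER2 overlapped JUNB and FOSL2 overlapped JUND over the palbociclib libraries.

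JUNB made up 36.2% ± 0.423 of the JUN family's FPKM with palbociclib and 17.7% ± 1.07 in controls. JUND made up 13.1% ± 4.23 with palbociclib and 31.3% ± 0.504 in controls. The share of JUN was 50.8% ± 3.96 with palbociclib and 51.1% ± 1.57 in controls. The summed FPKM of the family was 32.2, 28.5 and 20.6 in palbociclib libraries 1, 2 and 3, against 37.2, 41.7 and 39.8 in control libraries 1, 2 and 3. The JUNB share thus lay between 35.7% and 36.5% in every palbociclib library and between 16.8% and 18.9% in every control, including palbociclib library 3, in which the whole family was lowest. In the FOS family FOSL2 supplied 90.2% ± 3.22 of the FPKM with palbociclib and 84.5% ± 4.12 in controls, of sums of 5.45 ± 0.333 FPKM with palbociclib and 5.71 ± 0.813 FPKM in controls. Shares were set side by side without a test. Deposited FPKM were not TMM-scaled, and TMM factors were 0.961 to 0.963 with palbociclib and 1.04 in controls. Levels and sums with palbociclib thus read lower against controls in FPKM than after TMM scaling. Shares within a library are not affected.

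**Figure D2:**
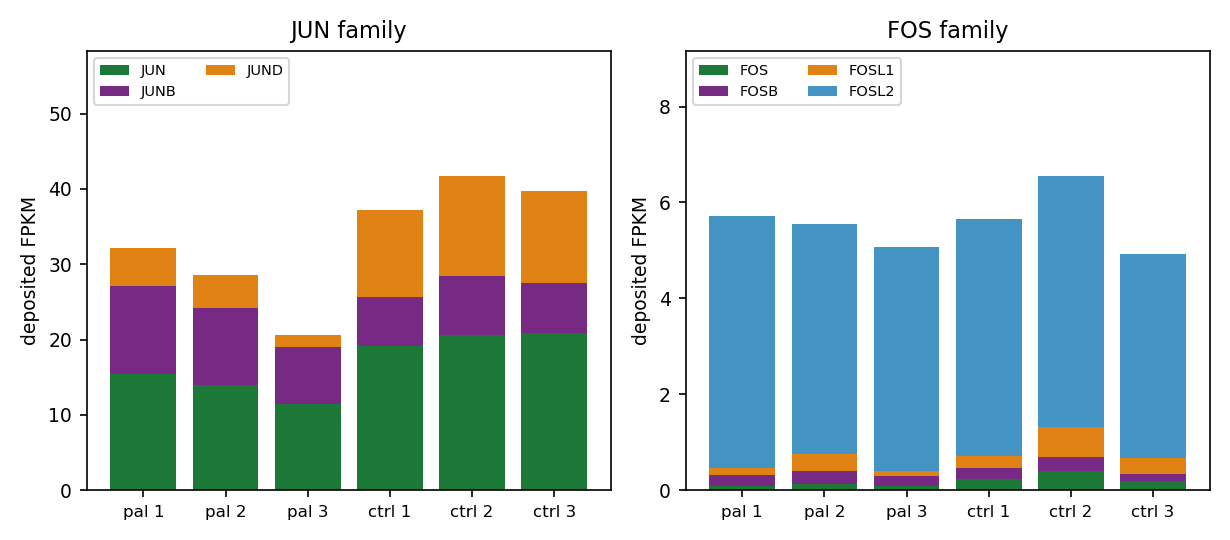
Stacked deposited FPKM of the JUN family (left) and the FOS family (right) in palbociclib libraries 1 to 3 and control libraries 1 to 3. JUNB takes 36.2% of the JUN family with palbociclib against 17.7% in controls, JUND 13.1% against 31.3%, and FOSL2 is the bulk of the FOS family in all 6 libraries.

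The upstream stretches of the 3 JUN genes, of FOS and of EGR1 are shown: JUN, JUNB, JUND and FOS because they were called, and EGR1, which was not, because its fast induction is known to act through CArG boxes. The sequences are from RefSeq on GRCh38.p14, 5′ to 3′ on the strand of the gene, and end at the last base before the annotated transcript. Capitals mark a match, on either strand, to the CArG box, to the AP-1 site TGACTCA or TGAGTCA, to the CRE TGACGTCA, or to the EGR site GCGTGGGCG or GCGGGGGCG within the 250 bases upstream of the start. Promoters were found for 8 of the 10 genes, all but FOSL1 and IER3.
JUN, chr1:58784049-58784167 (-): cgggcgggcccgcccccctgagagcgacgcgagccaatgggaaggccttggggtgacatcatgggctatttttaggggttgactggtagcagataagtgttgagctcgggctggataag
JUNB, chr19:12791366-12791485 (+): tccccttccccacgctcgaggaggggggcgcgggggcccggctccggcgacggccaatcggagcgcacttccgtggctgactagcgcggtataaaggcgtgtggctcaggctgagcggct
JUND, chr19:18281623-18281832 (-): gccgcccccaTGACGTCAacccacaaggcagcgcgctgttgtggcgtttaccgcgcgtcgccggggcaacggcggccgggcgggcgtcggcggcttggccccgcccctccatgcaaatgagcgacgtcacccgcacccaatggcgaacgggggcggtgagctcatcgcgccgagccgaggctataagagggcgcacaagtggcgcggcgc
FOS, chr14:75278708-75278825 (+): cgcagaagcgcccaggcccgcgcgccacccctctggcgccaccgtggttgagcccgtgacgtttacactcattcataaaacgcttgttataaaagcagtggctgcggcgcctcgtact
EGR1, chr5:138465359-138465478 (+): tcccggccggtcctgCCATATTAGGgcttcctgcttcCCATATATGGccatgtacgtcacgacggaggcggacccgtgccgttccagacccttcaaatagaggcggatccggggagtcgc

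Of the 8 windows, EGR1 alone held a CArG box, at 2 places (105 to 96 and 83 to 74 bases upstream). Both had an ETS core, GGAA on either strand, within 25 bases. In the printed stretch the core near the boxes reads TTCC, its opposite strand, and a copy shares a base with the second box. No match in capitals overlapped that of another motif in capitals. CArG boxes occurred in 1.14% of 27305 promoter windows of the same length, and with an ETS core nearby in 0.634%. JUND alone held the CRE, 200 to 193 bases upstream, as did 1.77% of all windows. The AP-1 site (4.16% of all windows) and the EGR site (5.3%) were in none of the 8. An absence, also that of the CArG box in FOS and IER2, says only that those letters are not in these 250 bases. TATAA, looked for after the sequences had been seen, lay 16 to 40 bases upstream in FOS, FOSB, JUNB and JUND, 4 of 8, and in 4.22% of all windows.

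JUN (ENSG00000177606, chromosome 1, 58776845 to 58784048 on hg38, minus strand) encodes the AP-1 subunit that Jun N-terminal kinases phosphorylate. It had 60.6, 54.6 and 44.5 CPM in palbociclib libraries 1, 2 and 3, against 69.5, 74.1 and 75.8 CPM in control libraries 1, 2 and 3. All palbociclib libraries lay below all controls. The log2 fold change was -0.46 ± 0.0994 (SE; edgeR adjusted p = 0.00627), and the call held with each library left out in turn, at -0.56 to -0.34.

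JUNB (ENSG00000171223, chromosome 19, 12791486 to 12793315, plus strand) encodes a subunit that activates fewer promoters than JUN and can displace it. It had 23.2, 20.1 and 14.8 CPM in palbociclib libraries 1, 2 and 3, against 11.8, 14.3 and 12.3 CPM in controls. Every palbociclib library was above every control, by a narrow margin between palbociclib library 3 and control library 2. The log2 fold change was 0.60 ± 0.16 (SE; edgeR adjusted p = 0.0165). It fell short without palbociclib library 1 (0.45, adjusted p = 0.0608), without palbociclib library 2 (0.57, 0.0579), without control library 1 (0.54, 0.0692) and on log2(FPKM + 1) (0.42, limma adjusted p = 0.0654), over a range of 0.000362 to 0.123 among alternatives. Exons of JUNB share 259 of 1830 bases with HOOK2 on the opposite strand, and whether strand was kept is not given, so reads there cannot be told apart. HOOK2 fell, with 69.3 ± 5.26 CPM with palbociclib and 86.3 ± 2.31 CPM in controls (-0.32 ± 0.0586, edgeR adjusted p = 0.00267).

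JUND (ENSG00000130522, chromosome 19, 18279694 to 18281622, minus strand) encodes the subunit that is usually present without stimulation. It had 10.6, 9.12 and 3.52 CPM in palbociclib libraries 1, 2 and 3, against 22.4, 25.5 and 23.8 CPM in controls. The controls were tight, the palbociclib libraries all lay below them, and palbociclib library 3 was far below the other two. The log2 fold change was -1.62 ± 0.324 (SE; edgeR adjusted p = 0.00401), and it was -1.28 without palbociclib library 3 (adjusted p = 9.47e-05). All fits without a single library called it, at -1.91 to -1.28.

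Palbociclib library 3 was also low in GC-rich transcripts at large, and JUND is among the most GC-rich genes tested. Its longest GENCODE transcript is 69.9% G and C, the 99.7th percentile of tested genes. The 69 other genes within 1 percentage point of it had a median log2 fold change of -0.42, with 24.6% called lower and 4.35% higher. In palbociclib library 3 their median difference from the mean of the other palbociclib libraries was -0.40 log2 units, and that of JUND was -1.47. JUNB, at 64.9% G and C, was at -0.54 in that library, with a median of -0.11 for 559 genes of like composition. With a GC-content offset per library, chosen after the data were seen, JUND was at -1.42 (edgeR adjusted p = 0.0024), JUNB at 0.70 (0.00216) and JUN at -0.46 (0.00677). The offset came from a smooth curve (lowess) that drew on a fraction of 0.3 of the genes at each point. That is wider than the range above the 95th percentile, where palbociclib library 3 was lowest. Whether the offset removes the whole GC effect at the composition of JUND was not tested.

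**Figure D3:**
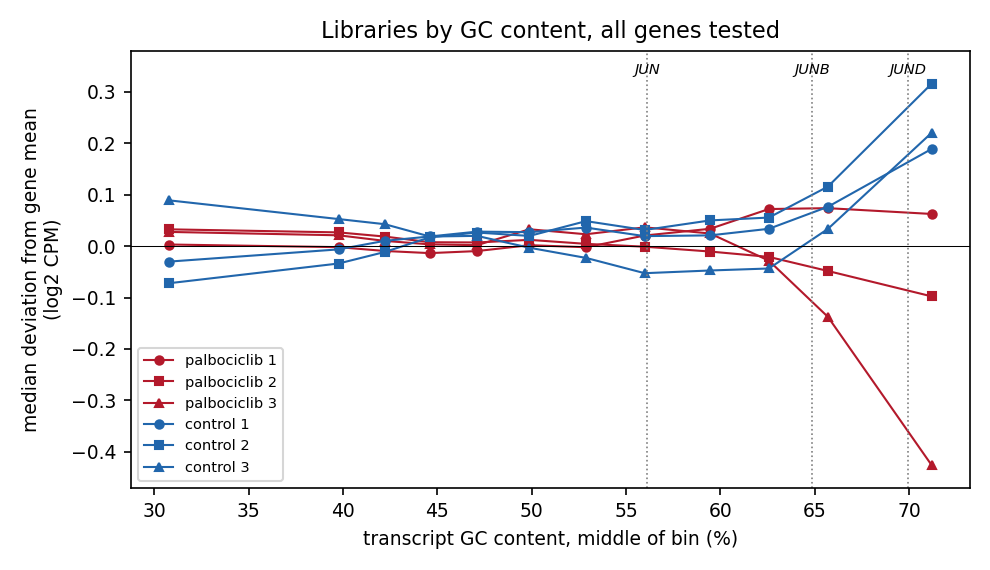
Median deviation of each library from the gene mean (log2 CPM) for bins of transcript GC content over all genes tested, palbociclib in red and control in blue, with the GC content of JUN, JUNB and JUND marked by dotted lines. Palbociclib library 3 is the lowest in the last bins, above 63.8%, and reaches -0.43 in the top bin, where control libraries are at 0.19 to 0.32.

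The FOS family was low apart from FOSL2. FOS (ENSG00000170345, chromosome 14, 75278826 to 75282230, plus strand), the classical transient partner of JUN, had 24, 31 and 17 counts in palbociclib libraries 1, 2 and 3, against 64, 76 and 42 counts in control libraries 1, 2 and 3. These are 0.328, 0.479 and 0.299 CPM against 0.789, 1.28 and 0.67 CPM, and the groups did not overlap. The log2 fold change was -1.30 ± 0.397 (SE; edgeR adjusted p = 0.0297). The call was lost without palbociclib library 1 (-1.22, adjusted p = 0.0836), palbociclib library 3 (-1.17, 0.0799), control library 1 (-1.39, 0.0562) or control library 2 (-0.98, 0.122). It rests on few fragments, since about 4 counts make 1.

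FOSB (ENSG00000125740, chromosome 19, 45467995 to 45475179), a FOS relative known for a long-lived splice form, had 98, 106 and 72 counts with palbociclib, against 103, 101 and 51 counts in controls (log2 fold change 0.17 ± 0.302, edgeR adjusted p = 0.707). FOSL1 (ENSG00000175592, chromosome 11, 65892049 to 65900419), which encodes FRA-1, had 24, 47 and 13 counts with palbociclib, against 40, 71 and 39 counts in controls (-0.84 ± 0.535, adjusted p = 0.26). Palbociclib library 3 was next to the floor of 12 counts for this gene, and the groups overlapped for both. FOSL2 (ENSG00000075426, chromosome 2, 28392448 to 28417312), which encodes FRA-2, had 40.6, 37.1 and 36.1 CPM with palbociclib, against 35.4, 37.2 and 30.6 CPM in controls. The groups overlapped at control library 2, and the log2 fold change was 0.14 ± 0.0824 (SE; edgeR adjusted p = 0.218).

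EGR1 (ENSG00000120738, chromosome 5, 138465479 to 138469303, plus strand) encodes a zinc finger factor whose CArG boxes are printed above. It had 71, 75 and 55 counts in palbociclib libraries 1, 2 and 3, against 222, 228 and 42 counts in control libraries 1, 2 and 3. That is 0.969, 1.16 and 0.968 CPM against 2.74, 3.83 and 0.67 CPM. Control libraries 1 and 2 stood above all palbociclib libraries and control library 3 below all of them. The log2 fold change was -1.22 ± 0.517 (SE; edgeR adjusted p = 0.0949). EGR1 passed without control library 3 (-1.67, edgeR adjusted p = 0.00119) and, with all 6 libraries, by DESeq2's Wald test (-1.22, adjusted p = 0.0326). It was negative in every fit that left out a single library, at -1.67 to -0.73, and positive when control library 3 was the sole control (0.62, edgeR adjusted p = 0.325).

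IER3 (ENSG00000137331, chromosome 6, 30743199 to 30744548, minus strand), a survival factor induced by NF-kB and ERK, had the same order of controls. It had 53, 37 and 49 counts with palbociclib, against 79, 87 and 29 counts in control libraries 1, 2 and 3 (log2 fold change -0.43 ± 0.428, edgeR adjusted p = 0.481), and it was 0.63 against control library 3 alone (adjusted p = 0.434). Exons of IER3 share 440 of 1350 bases with IER3-AS1, which had 3.67 CPM with palbociclib and 3.85 CPM in controls, so that the split of reads is uncertain. IER2 (ENSG00000160888, chromosome 19, 13150411 to 13154911, plus strand), a small nuclear protein, had 41.3, 35.6 and 26.6 CPM with palbociclib, against 43.7, 44.3 and 42.0 CPM in controls. Its groups did not overlap, palbociclib library 1 lying just below the controls, but it did not pass (-0.33 ± 0.135, edgeR adjusted p = 0.0877). Without palbociclib library 3 the IER2 difference was -0.17 (adjusted p = 0.13), and it passed without palbociclib library 1 (-0.48, 0.0178).

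**Figure D4:**
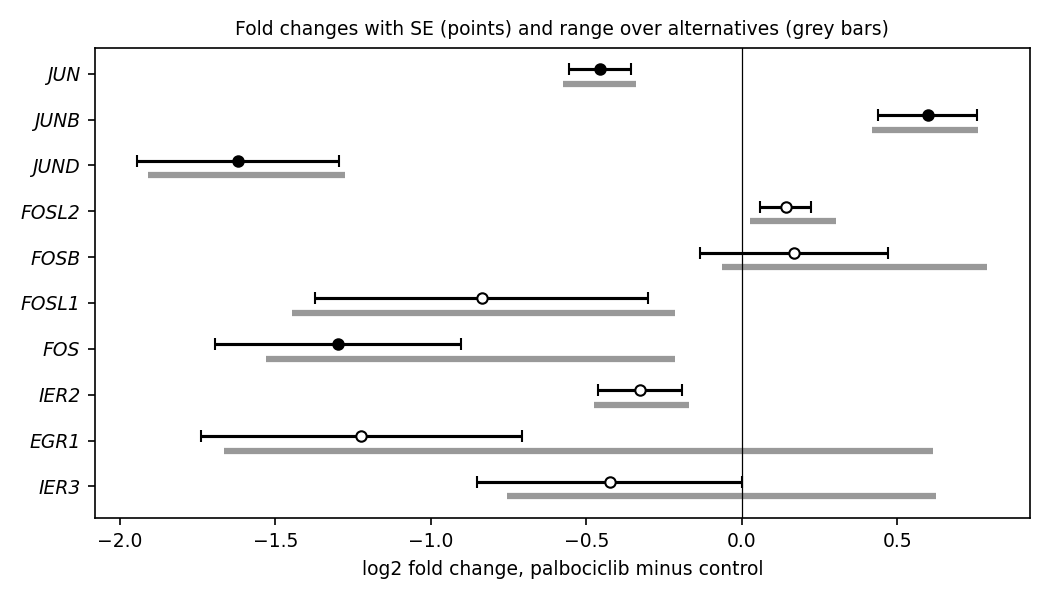
Log2 fold change of each gene, palbociclib minus control, with its SE; filled points passed the adjusted threshold of 0.05 and open points did not, and grey bars span the values over the alternative settings. JUN, JUNB, JUND, FOS, FOSL1, FOSL2 and IER2 stay on 1 side of zero under all of them, and EGR1 (-1.67 to 0.62), IER3 and FOSB do not.

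The patterns most like those of FOS, JUN and EGR1 were sought among 11296 genes of at least 5 CPM, as the root mean square difference of gene-centred log2 CPM over the 6 libraries. SPTBN1 (0.24), which encodes a spectrin chain, FLNC (0.27), an actin crosslinker, and SPARC (0.27), a matrix protein, were nearest to EGR1. SPTBN1 had 9.68, 8.49 and 11.4 CPM in palbociclib libraries 1, 2 and 3, against 21.1, 35.8 and 7.30 CPM in control libraries 1, 2 and 3. Its low control library 3 follows from how it was picked, by likeness to EGR1 over these same libraries, and is no separate observation. ARPC5L (0.04), an actin nucleation subunit, ZNF668 (0.04) and TYMP (0.06), thymidine phosphorylase, were nearest to JUN. FAM88B (0.18), the pseudogene PKD1P1 (0.20) and OAT (0.20), ornithine aminotransferase, were nearest to FOS, less close than the genes nearest to JUN.

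Around the core genes, 44 other immediate early genes were listed and 41 tested. Of these 10 rose, 11 fell and 20 did not pass, with a median log2 fold change of -0.11, against -0.03 over all genes tested, of which 20.1% rose and 18.5% fell. DUSP2, a nuclear phosphatase of ERK, rose to 31.5 CPM with palbociclib, against 11.0 CPM in controls (1.52 ± 0.0863, edgeR adjusted p = 3.24e-06), and the antiproliferative genes BTG1 (0.71) and BTG2 (0.53) rose as well. KLF4, a zinc finger factor of epithelial differentiation, fell to 4.98, 3.78 and 2.59 CPM in palbociclib libraries 1, 2 and 3, against 12.8, 10.4 and 9.79 CPM in controls (-1.54 ± 0.229, edgeR adjusted p = 8.18e-04). GADD45A, a growth arrest gene, fell too (-1.52), and so did ATF3, a stress-induced partner of JUN (-2.19). EGR2 and KLF2 were left out by the filter on low counts, at 0 to 9 and 0 to 26 counts.

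Of 22 tested genes for other bZIP proteins that can pair with JUN, FOS or their relatives, 11 fell, 2 rose and 9 did not pass, with a median of -0.22, against 18.5% lower and 20.1% higher over all genes tested. JDP2, a Jun dimerization protein that represses AP-1 sites, had 20.8, 21.6 and 19.6 CPM with palbociclib, against 50.2, 50.3 and 47.5 CPM in controls (-1.25 ± 0.0603, edgeR adjusted p = 1.15e-06). MAF, a large Maf factor, had 56.3, 54.6 and 51.1 CPM with palbociclib, against 20.1, 20.4 and 18.9 CPM in controls (1.45 ± 0.0613, edgeR adjusted p = 6.19e-07). Both were clear of overlap by a wide gap. ATF3 (-2.19), DDIT3 (-2.57) and ATF4 (-1.29), which belong to the amino acid stress programme, fell too (edgeR).

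Upstream, SRF itself, named after its value was seen, had 51.5 CPM with palbociclib and 50.3 CPM in controls (0.03 ± 0.0463, edgeR adjusted p = 0.636). Among 12 tested genes for SRF, its cofactors and its cytoskeletal targets, 2 rose and 3 fell, with a median of -0.03; 5 calls in 12 are near the 38.6% called over all genes tested. The targets VCL (0.63 ± 0.04), which encodes vinculin, and ACTB (0.44 ± 0.0489) rose, and the coactivators CREBBP (-0.70 ± 0.0505) and MRTFB (-0.34 ± 0.0451) fell, each by edgeR. Of 30 genes of the MAP kinase route 11 rose, 6 fell and 13 did not pass (median 0.05), against 20.1% higher and 18.5% lower over all genes tested. MAP2K3, which activates p38 (0.73), RPS6KA1, the kinase RSK1 (0.68), and MAP2K1, which is MEK1 (0.57), rose, whereas RPS6KA2, which is RSK3, fell (-0.54). The JNK genes were looked at after their values were known: MAPK8 fell to 45.5 CPM with palbociclib, against 56.1 CPM in controls (-0.30 ± 0.0544, edgeR adjusted p = 0.00227), and MAPK9 was at 0.05 (adjusted p = 0.45). MAPK10 rose to 1.58, 1.91 and 0.968 CPM in palbociclib libraries 1, 2 and 3, against 0.469, 0.571 and 0.207 CPM in controls (1.84 ± 0.427, edgeR adjusted p = 0.00865).

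Among 10 genes for turnover of JUN and FOS proteins, 2 rose and 2 fell, near the 20.1% higher and 18.5% lower over all genes tested. COP1 (0.21 ± 0.0529) and DDA1 (0.19 ± 0.0476), parts of a ubiquitin ligase that removes JUN, rose, whereas DET1, which joins them (2.61 CPM with palbociclib and 5.26 CPM in controls, -1.01 ± 0.279), and FBXW7, which recognises phosphorylated JUN (-0.38 ± 0.0872), fell. With library size alone 0 of the 10 were called higher and 6 lower. Of the corepressors of EGR1, NAB1 fell (6.53 CPM with palbociclib and 13.1 CPM in controls, log2 SE 0.108, edgeR adjusted p = 1.20e-04), and NAB2 was at -0.12 (adjusted p = 0.484).

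Textbook targets of AP-1 were listed at 31, of which 21 were tested: 2 rose, 5 fell and 14 did not pass, with a median of -0.50 against -0.03 over all genes tested. The 7 calls in 21 are not above the 38.6% called over all genes tested. TGFB1, a secreted growth regulator, fell to 0.505, 0.463 and 0.581 CPM in palbociclib libraries 1, 2 and 3, against 2.06, 2.75 and 1.32 CPM in controls (-1.98 ± 0.319, edgeR adjusted p = 0.00125). FN1, which encodes fibronectin, had 272.1, 265.6 and 310.9 CPM with palbociclib, against 638, 777 and 405.9 CPM in controls (-1.10 ± 0.195, edgeR adjusted p = 0.0021). SPP1, which encodes osteopontin, had 6.50, 7.12 and 8.13 CPM with palbociclib, against 19.9, 40.4 and 7.88 CPM in control libraries 1, 2 and 3 (-1.65 ± 0.472, edgeR adjusted p = 0.0226). Control library 3 was the lowest control for TGFB1, FN1 and SPP1, and it overlapped the palbociclib libraries for SPP1. Among the tested targets it was the lowest control for all but MMP2, VEGFA, ITGAV and NQO1. It lay below the palbociclib mean for CD44 (1.28 against 2.12 CPM) and PLAU (0.861 against 1.36 CPM), which were not called. How far the list median rests on control libraries 1 and 2 was not tested. VEGFA, an angiogenic factor, was even across controls (75.1 CPM with palbociclib and 157.3 CPM in controls, -1.07 ± 0.0369, edgeR adjusted p = 2.44e-07), and ITGAV, an integrin chain (0.46), and CCND1, which encodes cyclin D1 (0.43), rose.

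**Figure D5:**
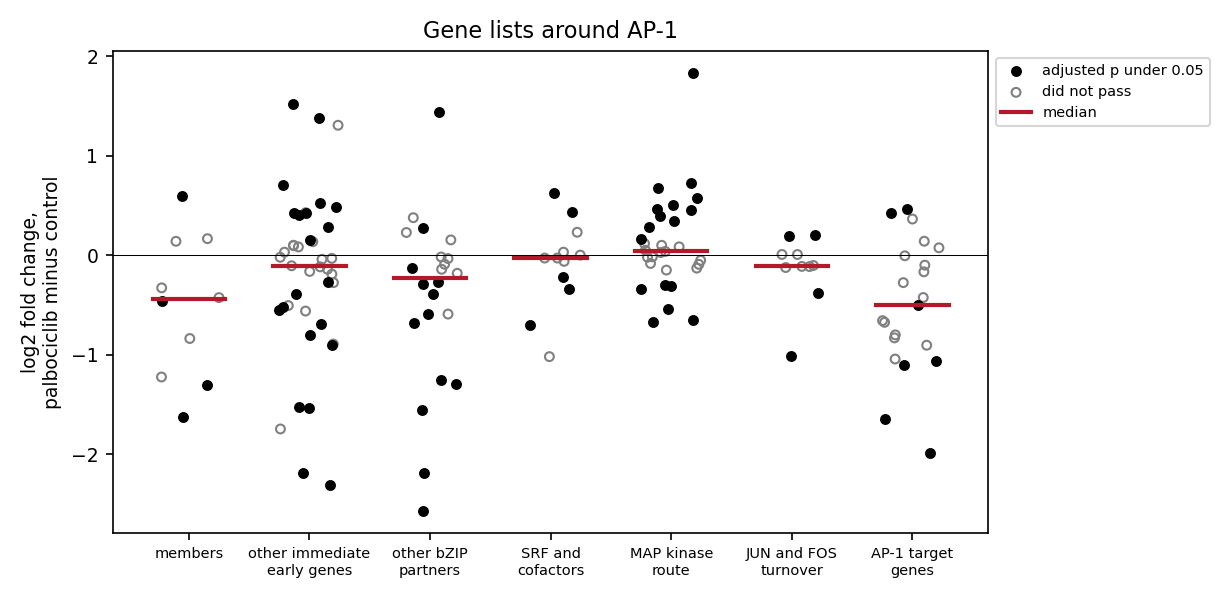
Log2 fold change, palbociclib minus control, of every tested gene of the 10 core genes (members) and of 6 lists around them, with filled points past the adjusted threshold of 0.05, open points not past it, and a red line at each list's median. The medians run from -0.50 for AP-1 targets to 0.05 for the MAP kinase route, and every list holds genes on both sides of zero.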

How the data were processed

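Per the labels' protocols, libraries were made with oligo(dT) beads. The submitters' processing notes list cutadapt 1.9, HISAT2 2.0.4, StringTie 1.3.4d, edgeR and the build hg38. The design text names fastp for trimming, HISAT2 for mapping and StringTie for FPKM. The authors deposited estimated counts and FPKM values per gene. The annotation release and strandedness are not given in the sources used here. Deposited estimated counts were whole, so rounding changed 0 values; multiples of 4 were over-represented, so about 4 counts stand for 1 fragment.

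Genes were kept with edgeR 4.0.16 filterByExpr (minimum count 10, total 15), leaving 21218 of 35430; all 10 core genes passed. Counts were TMM-scaled and fitted with glmQLFit and glmQLFTest (palbociclib minus control, 6 libraries), with no replicate block. SE is the absolute log2 fold change over the square root of F. Log2 CPM used a prior count of 2. Script tests ran on simulated data. R 4.3.3, limma 3.58.1 and DESeq2 1.42.0 served the alternatives. GC content and exon overlaps came from GENCODE 44 on hg38 (35399 of 35430 identifiers found). Members and lists were chosen with earlier results of these data known. Beyond the core genes, the text names up to 4 genes per list with the lowest adjusted p and genes past 2-fold at 5 CPM or more, and the 3 genes nearest in pattern to FOS, JUN and EGR1.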

Additional observations from a re-analysis of the deposited data

How the results depend on the processing

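JUN and JUND kept their direction and call in 16 of 17 alternatives. Against control library 3 alone, where that single control is assumed to vary like the palbociclib libraries, no core gene was called (0 higher, 0 lower): JUN was -0.52, JUND -1.62, FOS -0.86 and JUNB 0.65, while EGR1 (0.62) and IER3 (0.63) turned positive. There the calls in the lists were 7 lower and 6 higher for other immediate early genes, 7 lower and 1 higher for bZIP partners, 2 lower for AP-1 targets (5 with all controls), and 2182 genes were lower overall (3921 with all controls). On log2(FPKM + 1) and log2(FPKM + 0.1) JUNB was 0.42 and 0.46 without a call (0 core genes higher), IER2 was called at -0.42 and -0.46, and both settings gave 6 other immediate early genes and 1 bZIP partner higher, and 0 turnover genes higher and 6 lower. Library size alone gave the same 6, 1, 0 and 6, moved the median of all genes to -0.138, and called IER2 (-0.44). DESeq2's Wald test called EGR1 (-1.22) and IER2 (-0.32) too, 5 core genes lower in all. Turnover genes called lower were 4 with a filter of at least 1 CPM in 3 libraries, which left FOS, FOSL1 and IER3 untested, and 4 with counts divided by 4. With no filter on low counts 1 bZIP partner was higher.

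Leaving out 1 library at a time, core genes called numbered 0 to 1 higher and 2 to 4 lower. FOS ran from -1.53 to -0.98, JUNB from 0.45 to 0.76, EGR1 from -1.67 to -0.73, IER2 from -0.48 to -0.17 and FOSB from -0.064 (without control library 3) to 0.44. Called lists ran from 6 to 9 (other immediate early, higher), 1 to 2 (bZIP, higher) and 1 to 2 (turnover, lower). Same-numbered libraries did not deviate together (r = -0.01, -0.03 and -0.04 across genes). With so few libraries this gave no sign of pairing but cannot exclude a shared culture or batch. With the replicate block 3855 genes were higher and 3438 lower, IER2 was called (-0.35, adjusted p = 0.0495) and 1 bZIP partner was higher. Higher genes were 4270 of the 8191 calls with TMM, 3094 against 5479 lower with library size alone, and 3050 against 5073 lower on log2(FPKM + 1). FOS, FOSL1, FOSB, EGR1 and IER3 had under 2 CPM with palbociclib, and depth limits what can be said of them.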
